A study of Rattus norvegicus with 10 samples.

Results

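The genes described here encode the complement and coagulation proteins of plasma. They are 39 genes listed by their roles in the classical, lectin, alternative and terminal pathways of complement, in the tissue factor, contact and common pathways of clotting, and in anticoagulation and fibrinolysis. A gene was measured where the RefSeq accession of a probe gave its symbol, which was so for 32 of the 39 and for 13426 genes in all. C5, C7, C8b, C8g, F11, F5 and F13b had no matched probe and are only named.

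RNA of the whole liver came from 10 male Wistar rats, each hybridized to its own array. The control group (n = 3) received neither irradiation nor MASM. The TBI group (n = 3) received total-body irradiation of 6.5 Gy from a cobalt source, and the MASM + TBI group (n = 4) received the matrine derivative MASM into the stomach at 30 mg/kg/day for 3 days before the same irradiation. Liver was taken at 24 h. The dose is that of the sample labels, and the study's text does not give the same one. No rats given MASM without irradiation were among the 10, and the age of the rats was not given in the sources used here.

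Most of these proteins are made by hepatocytes and secreted as inactive precursors. Complement tags microbes and damaged cells through C3 and can pierce membranes through its terminal components. The clotting cascade ends in thrombin, which turns fibrinogen into fibrin, and the anticoagulants and plasmin limit and dissolve the clot. Several members are acute phase proteins, whose synthesis in the liver changes during inflammation. Other cells make some proteins of these systems. The member Cfd is made mainly by fat and macrophages, and C1q, which starts the classical pathway and is not among the members, by macrophages such as the Kupffer cells of the liver.

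All values below are log2 signals after quantile normalization between the arrays, and all differences are on that log2 scale. A member is called where limma gave a Benjamini-Hochberg adjusted p under 0.05 over all 40945 probes and the change was at least 1.5-fold, and the study's own threshold of an unadjusted p under 0.05 with the same fold is counted beside it. The 32 members were well above background on all 10 arrays. Where all rats of a group lie above or below those of another, the share of all genes that do so was not counted. Such separations are descriptions only. The hepatocyte markers (Alb, Ttr, Apoa1 and others, 8 of 8 measured) had mean signals between 15.28 and 15.65 in every rat, and 0 of them was called in any comparison. At the unadjusted threshold 1 of the 8 was higher in both comparisons with control, Tat, an enzyme of tyrosine breakdown, at 1.53 in TBI and 1.13 in MASM + TBI rats (adjusted p = 0.0885 and 0.211). Without overlap in TBI against control, Ttr, the carrier of thyroid hormone, lay -0.52 and Apob, of the lipoproteins, 0.32 from control (adjusted p = 0.102 and 0.118). As a check of the labels, Cdkn1a, the p53 target that halts the cell cycle, rose by 5.36 after TBI alone and 4.80 after MASM and TBI (adjusted p = 0.000130 and 0.000146). The share of spots well above background was 57.2 to 59.9% on control arrays, 64.1 to 70.1% on TBI arrays and 56.2 to 60.2% on MASM + TBI arrays. The 3 TBI arrays shared a slide of their own, so TBI and slide cannot be told apart. In bulk liver, a change in the number of cells of a type and a change in RNA per cell cannot be told apart either.

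After TBI, only Kng1 and Cfd of the list were called, and these few calls do not set the list apart from all genes. In TBI against control, 2 of 32 members rose, Kng1 and Cfd, against 2.44% of all genes, and 0 fell, against 2.74% of all genes. The count was 0 with a model of the 2 groups alone, with the methods' t-test, without control rat 3 and without TBI rat 2. At the unadjusted threshold, 2 members were higher, where the background was 7.54%, and 1 was lower, Klkb1, where it was 5.59%. Over the 8432 genes well above background on every array, as all members were, those shares were 5.03% and 5.68%. Klkb1 was not past that threshold with the methods' t-test, which called 0 members in both comparisons with control. The median difference of the members was -0.031, beside -0.0092 over all genes, with 13 members above 0 and 19 below. With MASM before TBI, 1 of 32 members was called above control, again Kng1, against 0.931% of all genes called higher, and 0 members fell, against 1.97%. At the unadjusted threshold that comparison held 1 member above control, Kng1, with a background of 3.5%, and 0 members below, with a background of 5.68%. Its median member difference was 0.020, beside -0.00067 over all genes.

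**Figure D1:**
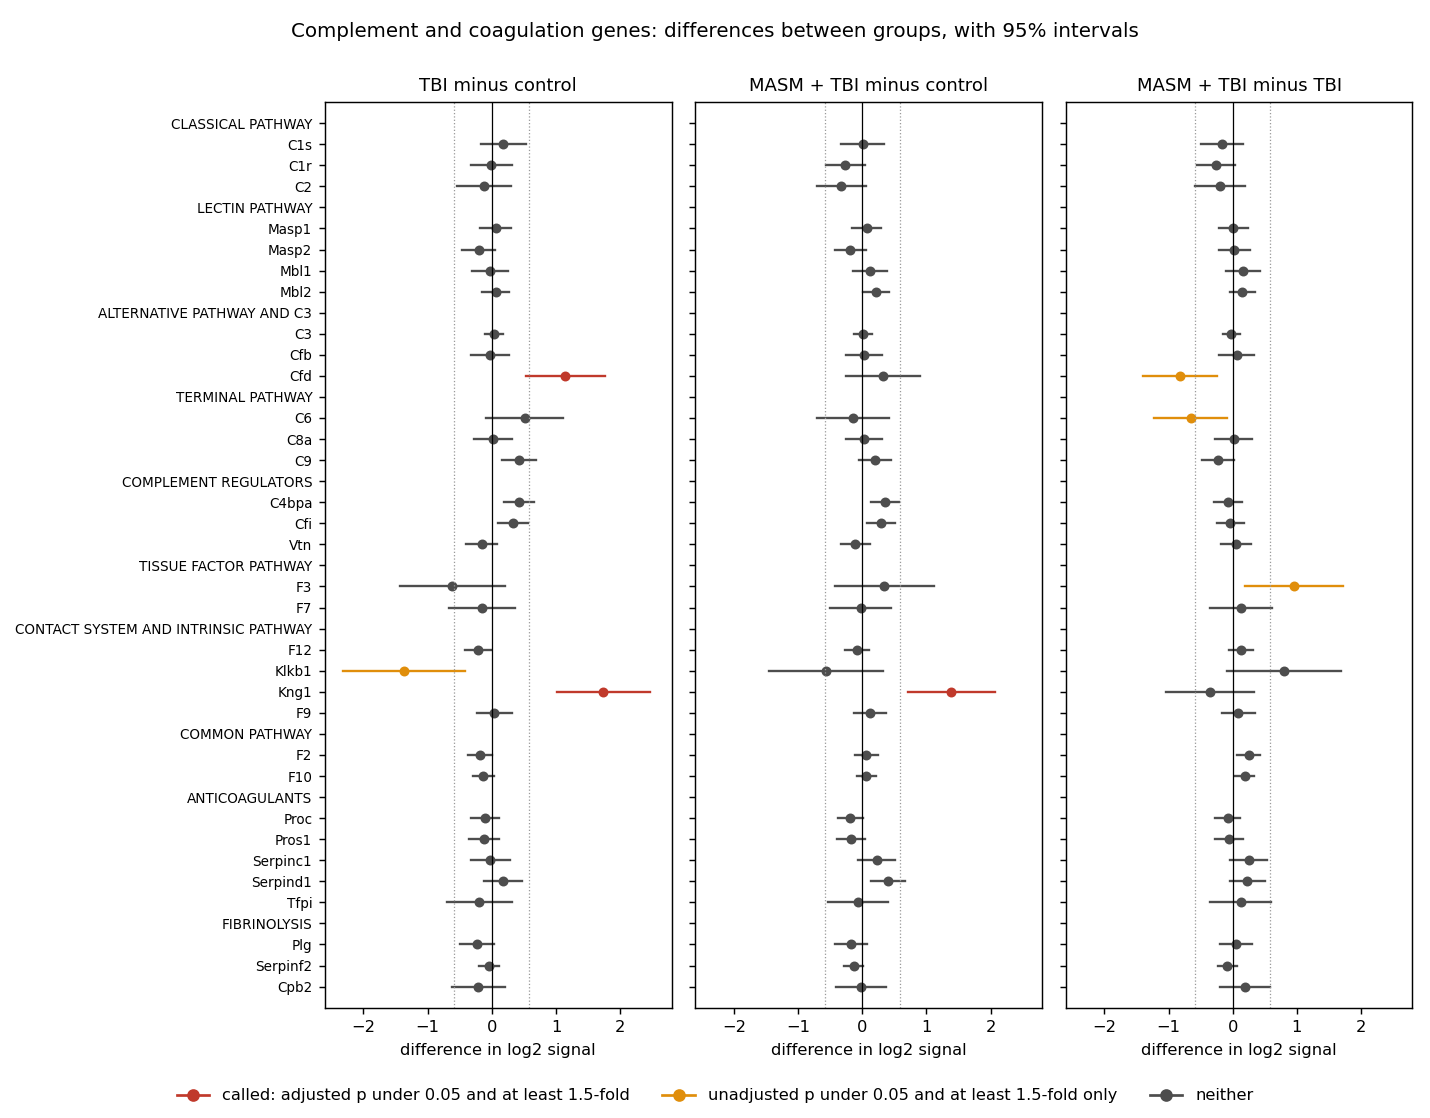
Differences in log2 signal between groups for the 32 measured members, ordered by role, with 95% intervals from limma (points: differences; dotted lines: 1.5-fold in either direction). In TBI minus control only Kng1 (1.74) and Cfd (1.14) are called, and Klkb1 (-1.36) lies past the unadjusted threshold only. In MASM + TBI minus TBI no member is called.

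In TBI against control, the largest rise of the list was that of Kng1 and the most negative difference that of Klkb1. Kng1, listed with the contact system, is a kininogen gene, and which of the rat's kininogens its probe reports is uncertain. It gave 14.87, 15.58 and 15.37 in the controls, 16.40, 17.53 and 17.10 in the TBI rats and 17.02, 16.82, 16.49 and 16.29 in the MASM + TBI rats. Each irradiated rat, with or without MASM, lay above every control. The rise was 1.74 in TBI (SE 0.32, 3.34-fold, adjusted p = 0.0214) and 1.39 in MASM + TBI rats (SE 0.30, 2.61-fold, adjusted p = 0.0492). The MASM + TBI and TBI rats overlapped, and their difference was -0.35 (95% interval -1.03 to 0.33, adjusted p = 0.593). In TBI against control, Kng1 was no longer called without control rat 1, control rat 3 or TBI rat 2, with adjusted p = 0.0626, 0.0629 and 0.0506 and differences of 1.54, 1.79 and 1.48. In MASM + TBI against control it was called in 2 of the 10 fits that left out a rat, those without TBI rat 1 or TBI rat 2, and its adjusted p was 0.256 with slide as a fixed block. The slide of the controls also carried MASM + TBI rat 3, whose Kng1 signal of 16.49 lay above the 3 controls beside it. A model of the 2 groups alone gave adjusted p = 0.0732 for Kng1 in TBI against control.

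The rat carries several kininogen genes side by side on chromosome 11. K-kininogen is the precursor of bradykinin and, in its long form, a cofactor for contact activation, whereas the T-kininogens of the rat are acute phase proteins. RefSeq lists Kng1 as an older symbol of both Kng2 and Kng2l1. The older symbols of Kng2l1 name K-kininogen (Kngk), those of Kng2 name both forms (Kngk and Kngt), and those of the gene now called Kng1 name neither, so its rise is not assigned to the contact system here. The 2 probes of Kng2 changed almost as the Kng1 probe did. They rose by 1.55 and 1.40 in TBI (adjusted p = 0.0188 and 0.0154) and by 1.24 and 1.14 in MASM + TBI rats (adjusted p = 0.0444 and 0.0349). The probe of Kng2l1 differed from control by 0.18 and 0.24 (adjusted p = 0.349 and 0.269). Its 3 control signals lay between 14.05 and 14.18, the TBI signals between 14.19 and 14.46 and the MASM + TBI signals between 14.26 and 14.52. Every irradiated rat lay above every control for this gene too, but TBI rat 1 (14.193) only barely above control rat 2 (14.177). The arrays thus held 2 kininogen genes with a called change and 1 whose smaller difference did not pass the test. The probes' own sequences were not used here, so whether transcripts of several kininogen genes share a probe is not known. The assignment of the rise to Kng1 rather than Kng2 is uncertain.

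**Figure D2:**
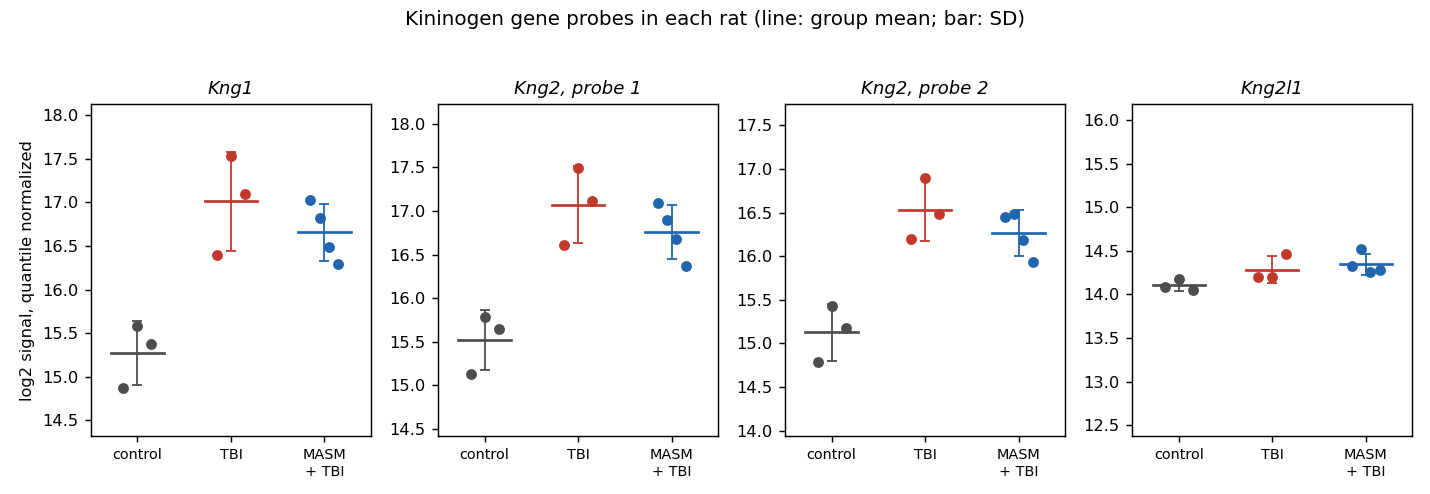
Log2 signal of the 4 probes matched to kininogen genes in each rat (points: rats; line: group mean; bar: SD; each panel spans the same number of log2 units). For all 4 probes every irradiated rat lies above every control, for Kng2l1 only by a small margin. The Kng2l1 signals span the narrowest range, from 14.05 to 14.52.

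The 250 bases before the annotated starts of the kininogen genes are shown side by side. They do not measure how alike the transcripts or the probes are. The sequences are those of RefSeq on assembly GRCr8, at chr11:91340149-91340398 (minus strand) for Kng1, chr11:91483169-91483418 (plus strand, the upstream one of its listed starts) for Kng2l1 and chr11:91418220-91418469 (plus strand) for Kng2. In the first pair, capitals mark bases that differ or lack a partner where the windows align. In Kng2, capitals mark the stretch that aligns with the start of the Kng1 window.
Kng1: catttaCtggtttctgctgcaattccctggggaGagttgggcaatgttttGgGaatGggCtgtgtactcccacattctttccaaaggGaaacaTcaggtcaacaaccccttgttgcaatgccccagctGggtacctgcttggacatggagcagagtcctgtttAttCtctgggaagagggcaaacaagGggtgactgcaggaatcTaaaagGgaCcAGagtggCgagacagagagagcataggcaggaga
Kng2l1: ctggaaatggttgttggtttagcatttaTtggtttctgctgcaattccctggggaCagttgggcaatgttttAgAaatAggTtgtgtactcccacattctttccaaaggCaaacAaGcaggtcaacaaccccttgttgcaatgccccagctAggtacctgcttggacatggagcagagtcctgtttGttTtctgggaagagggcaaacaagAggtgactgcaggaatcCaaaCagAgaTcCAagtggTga
Kng2: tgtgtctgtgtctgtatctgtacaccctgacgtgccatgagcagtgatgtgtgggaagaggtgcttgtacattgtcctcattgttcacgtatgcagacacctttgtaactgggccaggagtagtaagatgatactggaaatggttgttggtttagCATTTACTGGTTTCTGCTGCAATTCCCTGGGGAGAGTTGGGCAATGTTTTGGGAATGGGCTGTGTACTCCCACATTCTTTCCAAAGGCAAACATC
Kng1 and Kng2l1 matched at 208 of 228 aligned positions (91.2%). Kng1 and Kng2 matched at 94 of 95 (98.9%), over a shorter overlap because their annotated starts are placed differently. Kng2 and Kng2l1 matched at 109 of 117 (93.2%). The STAT motif TTCNNNGAA occurred in the Kng2l1 window, from 61 to 53 bases before its start, and in neither of the other windows. The Kng2 window ends before the matching stretch, so that stretch was not searched in Kng2. The motif is present in 7.52% of all 27457 promoter windows searched, so the match is a description only.

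Plasma prekallikrein (Klkb1), whose active form cuts bradykinin out of kininogen, had the most negative difference in TBI. Its signals were 12.55, 13.77 and 13.62 in the controls, 12.00, 11.91 and 11.93 in the TBI rats and 12.53, 13.70, 12.52 and 12.25 in the MASM + TBI rats. The TBI rats lay below every control and every MASM + TBI rat, and they were closely grouped. The difference was -1.36 in TBI against control (SE 0.42, adjusted p = 0.0971), -0.56 in MASM + TBI against control (adjusted p = 0.539) and 0.80 in MASM + TBI against TBI (adjusted p = 0.345). The difference in TBI against control passed the adjusted threshold without MASM + TBI rat 2 (adjusted p = 0.0489). Klkb1 had the largest spread of the members within groups, with a residual SD of 0.553, beside a median of 0.143 over the members and 0.179 over the 8432 genes well above background on every array. Control rat 1 and MASM + TBI rat 2 stood apart from the rest of their groups.

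Factor XII (F12), which starts contact activation, and factor IX (F9), of the intrinsic pathway, were not called. F12 gave 15.72, 15.72 and 15.85 in the controls, 15.57, 15.61 and 15.45 in the TBI rats and 15.55, 15.79, 15.66 and 15.69 in the MASM + TBI rats. Every TBI rat lay below every control, and the difference was -0.22 (adjusted p = 0.184). A second F12 probe gave -0.43 in the same comparison (adjusted p = 0.0628). The F12 differences in MASM + TBI against control and against TBI were -0.088 and 0.13. For F9, the differences in TBI against control, MASM + TBI against control and MASM + TBI against TBI were 0.035, 0.12 and 0.085, and the lowest of its adjusted p values was 0.683.

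In the alternative pathway, Cfd stood apart from C3 and Cfb. Factor D (Cfd), also called adipsin, is the protease that cuts factor B and so completes the convertase of the alternative pathway. Its signals were 11.54, 10.88 and 10.69 in the controls, 11.72, 12.43 and 12.38 in the TBI rats and 11.17, 11.18, 11.43 and 11.67 in the MASM + TBI rats. The TBI rats lay above all controls and all MASM + TBI rats, with TBI rat 1 closest to both. Cfd rose by 1.14 in TBI (SE 0.27, 2.20-fold, adjusted p = 0.0479). In MASM + TBI rats it was 0.32 from control (adjusted p = 0.605) and -0.82 from TBI (SE 0.25, adjusted p = 0.157). The call in TBI rests close to the threshold. It held in 2 of the 10 fits that left out a rat, those without control rat 1 or TBI rat 1, and the adjusted p ranged from 0.0309 to 0.144 over the 10. With only the 2 groups in the model it was 0.122.

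Of the fat markers, Adipoq, Lep and Retn were well above background on 0 arrays and Fabp4 on all 10, and the mean over the 4 lay between 2.52 and 3.11 in every rat. The mean signal over the 10 Kupffer cell markers (Cd68, Marco, Clec4f, Csf1r and others) lay between 11.07 and 11.78 in the controls, 11.36 and 12.23 in the TBI rats and 10.97 and 11.36 in the MASM + TBI rats. TBI rat 2 was highest both for Cfd and for this mean, but control rat 1 and MASM + TBI rat 4, the highest of their groups for Cfd, were the lowest of their groups for the mean. The part of Kupffer cells in the Cfd result was not tested.

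C3, at which all activation routes meet, and factor B (Cfb), the catalytic subunit of the alternative convertase, did not pass the test. The C3 signals ranged from 17.93 to 18.02 over the 10 rats. Its differences in TBI against control, MASM + TBI against control and MASM + TBI against TBI were 0.032, 0.010 and -0.022, with a 95% interval of -0.11 to 0.18 for the first. The C3 probe held a rank between 8 and 13 among the 40945 probes on every array. Quantile normalization gives equal values to equal ranks, so a change of C3 could show only as a change of rank. Cfb signals ranged from 15.38 to 15.85, and its differences in the same order were -0.030, 0.030 and 0.060.

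**Figure D3:**
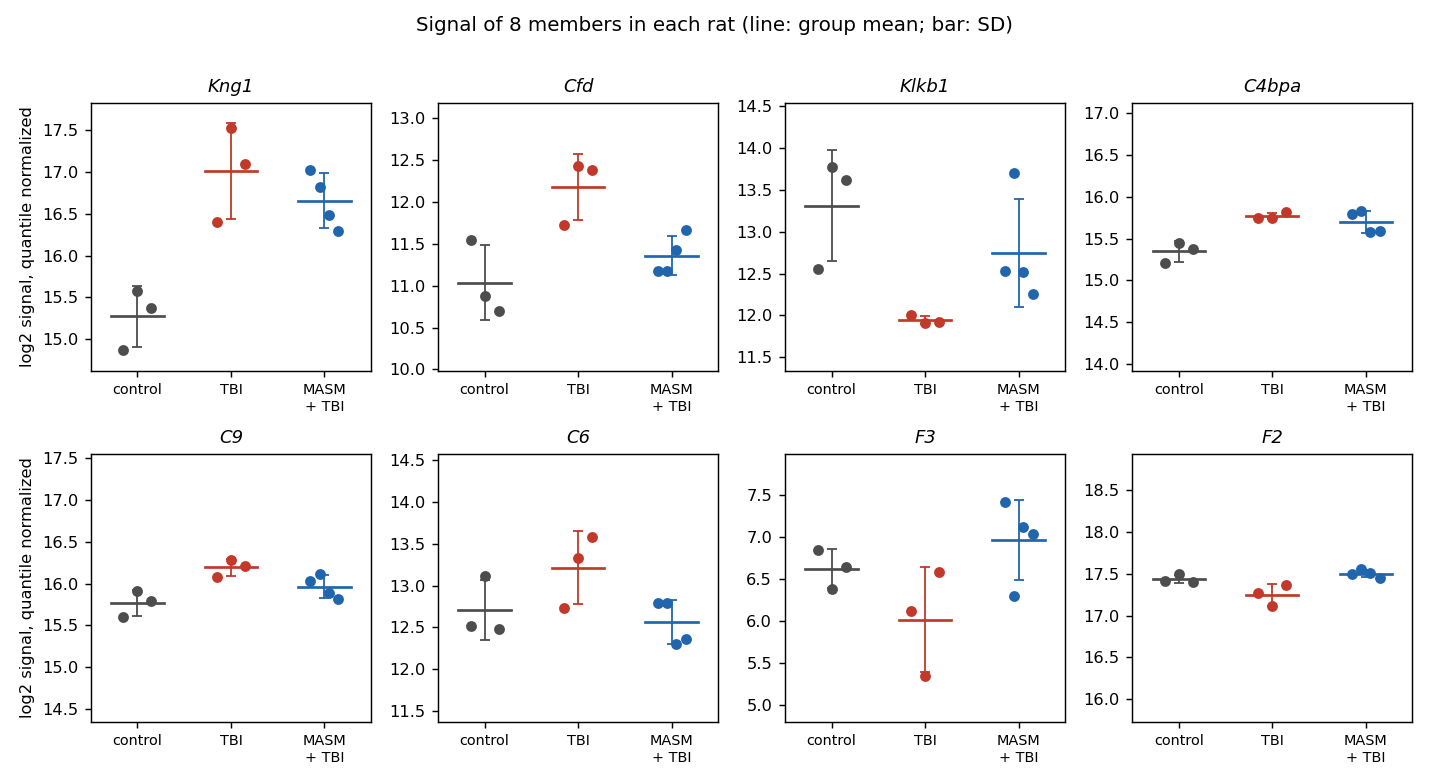
Log2 signal of 8 members in each rat by group (points: rats; line: group mean; bar: SD). Every panel spans at least the same number of log2 units, so the narrow spread of C4bpa, C9 and F2 can be set against the wide spread of Klkb1 and F3. For Kng1 and Cfd the 3 TBI rats lie above the 3 controls, and for Klkb1 below them.

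The measured terminal components were C6, C8a and C9, which join to form the membrane attack complex. C9, the component that lines the pore, gave 15.60, 15.91 and 15.79 in the controls, 16.08, 16.28 and 16.21 in the TBI rats and 16.03, 16.11, 15.89 and 15.82 in the MASM + TBI rats. Every TBI rat lay above every control, with a difference of 0.43 (SE 0.11, adjusted p = 0.0693), which is under 1.5-fold. The MASM + TBI rats overlapped both groups, at 0.20 from control (adjusted p = 0.419) and -0.23 from TBI (adjusted p = 0.325). C6 gave 12.52, 13.12 and 12.48 in the controls, 12.74, 13.33 and 13.58 in the TBI rats and 12.79, 12.79, 12.30 and 12.36 in the MASM + TBI rats. These groups overlapped. The C6 differences were 0.51 in TBI against control (adjusted p = 0.289) and -0.65 in MASM + TBI against TBI (adjusted p = 0.229), and MASM + TBI lay -0.15 from control. C8a ranged from 14.32 to 14.77, with differences of 0.020, 0.032 and 0.012 in TBI against control, MASM + TBI against control and MASM + TBI against TBI. A second C8a probe gave -0.13 and -0.068 in the comparisons with control, of opposite sign to the probe used, and no C8a difference was called.

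The soluble complement regulators C4bpa and Cfi were not called, though higher in all 7 irradiated rats than in any control. How many of all genes separate the groups in this way was not counted. The alpha chain of C4b-binding protein (C4bpa) holds C4b for cleavage by factor I (Cfi). C4bpa gave 15.21, 15.45 and 15.38 in the controls, 15.75, 15.75 and 15.82 in the TBI rats and 15.79, 15.83, 15.57 and 15.59 in the MASM + TBI rats. Its difference in TBI was 0.43 (1.34-fold, adjusted p = 0.050, just above the threshold before rounding), and in MASM + TBI it was 0.35 (adjusted p = 0.0992). Cfi gave 16.75, 16.66 and 16.71 in the controls, 16.96, 16.92 and 17.22 in the TBI rats and 17.13, 16.97, 16.93 and 16.95 in the MASM + TBI rats. Its differences from control were 0.33 in TBI and 0.29 in MASM + TBI (adjusted p = 0.0990 and 0.154). The irradiated groups overlapped for both genes, with differences of -0.076 and -0.037 in MASM + TBI against TBI. Vitronectin (Vtn), which keeps terminal complexes out of membranes, gave 17.51, 17.51 and 17.71 in the controls, 17.48, 17.20 and 17.57 in the TBI rats and 17.48, 17.46, 17.49 and 17.44 in the MASM + TBI rats. Its groups overlapped between TBI and control, and its 3 differences in the order of the plot were -0.16, -0.11 and 0.053. Every MASM + TBI rat lay below every control for Vtn, by a small margin (adjusted p = 0.685).

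The first enzymes of the classical pathway, C1r and C1s, and C2, which forms the C3 convertase with C4b, were not called in TBI. C1r gave 14.73, 15.12 and 15.10 in the controls, 14.93, 15.20 and 14.81 in the TBI rats and 14.72, 14.86, 14.65 and 14.64 in the MASM + TBI rats. C1s gave 13.92, 14.41 and 14.37 in the controls, 14.25, 14.38 and 14.59 in the TBI rats and 14.40, 14.28, 14.18 and 14.09 in the MASM + TBI rats. The groups of both overlapped in TBI against control. The C1r differences were -0.0062, -0.27 and -0.26, and the C1s differences 0.18, 0.0052 and -0.17, in TBI against control, MASM + TBI against control and MASM + TBI against TBI. C2 gave 12.04, 12.11 and 12.55 in the controls, 11.96, 12.18 and 12.19 in the TBI rats and 12.05, 12.03, 12.02 and 11.54 in the MASM + TBI rats. Its differences in that order were -0.12, -0.32 and -0.20, and the lowest value belonged to MASM + TBI rat 4. The adjusted p of these genes was lowest for C1r in MASM + TBI against control, at 0.365.

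The lectin pathway reads sugars on microbes through the mannose-binding lectins Mbl1 and Mbl2, which carry the proteases Masp1 and Masp2. Mbl2 gave 10.60, 10.33 and 10.34 in the controls, 10.55, 10.38 and 10.52 in the TBI rats and 10.65, 10.61, 10.61 and 10.67 in the MASM + TBI rats. Every MASM + TBI rat lay above every control and every TBI rat, by a small margin, with differences of 0.21 and 0.15 (adjusted p = 0.258 and 0.425). The TBI and control rats of Mbl2 overlapped, with a difference of 0.061. Mbl1 gave 12.44, 12.72 and 12.66 in the controls, 12.45, 12.49 and 12.78 in the TBI rats and 12.88, 12.66, 12.77 and 12.61 in the MASM + TBI rats, with differences of -0.033, 0.12 and 0.16 in the order of the plot. Masp2 gave 12.37, 12.37 and 12.54 in the controls, 12.43, 12.12 and 12.11 in the TBI rats and 12.33, 12.23, 12.29 and 12.11 in the MASM + TBI rats, with differences of -0.21, -0.19 and 0.021. With this probe every MASM + TBI rat lay below every control, by a small margin (adjusted p = 0.440). The 2 other Masp2 probes gave 0.18 and 0.21 in TBI against control, of opposite sign to the probe used, and no Masp2 difference was called. Masp1 ranged from 12.14 to 12.46, with differences of 0.060, 0.071 and 0.011. Its 2 other probes gave -0.12 and -0.25 in TBI against control, again of opposite sign, and no Masp1 difference was called.

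Tissue factor (F3) starts clotting when it meets factor VII (F7) in plasma, and F3 is a membrane protein of cells around vessels rather than a hepatocyte secretion. F3 gave 6.85, 6.39 and 6.64 in the controls, 6.12, 5.34 and 6.58 in the TBI rats and 7.43, 6.30, 7.13 and 7.03 in the MASM + TBI rats. The groups overlapped, and TBI rat 2 was lowest by a wide margin. The difference in TBI against control was -0.61 (adjusted p = 0.345) and that in MASM + TBI against TBI was 0.96 (SE 0.34, adjusted p = 0.199), while MASM + TBI lay 0.34 from control. F7 ranged from 9.10 to 10.00, with TBI rat 3 lowest, and its differences were -0.16, -0.026 and 0.13 in TBI against control, MASM + TBI against control and MASM + TBI against TBI.

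In the common pathway, prothrombin (F2) and factor X (F10) showed the same order of groups. F2 gave 17.42, 17.49 and 17.40 in the controls, 17.27, 17.11 and 17.37 in the TBI rats and 17.49, 17.55, 17.51 and 17.45 in the MASM + TBI rats. F10 gave 14.15, 14.19 and 14.23 in the controls, 13.98, 14.11 and 14.09 in the TBI rats and 14.26, 14.22, 14.30 and 14.21 in the MASM + TBI rats. For both genes the 3 TBI rats lay below every control and every MASM + TBI rat. The F2 difference was -0.19 in TBI against control (SE 0.083, adjusted p = 0.219) and 0.25 in MASM + TBI against TBI (SE 0.078, adjusted p = 0.158). The F10 differences in those comparisons were -0.13 (adjusted p = 0.299) and 0.19 (adjusted p = 0.192). Against control, MASM + TBI rats lay 0.063 away for F2 and 0.059 for F10. All 4 estimates involving TBI are under 1.5-fold, and F2 was among the 55 brightest probes of every array.

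The vitamin K-dependent members, F2, F7, F9, F10, Proc and Pros1, had 0 of 6 called in any comparison, where 2.44% of all genes were called higher and 2.74% lower in TBI, so the count does not set them apart. Their medians were -0.13 in TBI against control, 0.016 in MASM + TBI against control and 0.11 in MASM + TBI against TBI. Protein C (Proc), which inactivates clotting cofactors, gave 16.10, 16.07 and 16.23 in the controls, 15.91, 15.98 and 16.20 in the TBI rats and 15.99, 15.98, 15.88 and 15.95 in the MASM + TBI rats. Its cofactor protein S (Pros1) gave 10.65, 10.702 and 10.42 in the controls, 10.58, 10.34 and 10.50 in the TBI rats and 10.40, 10.49, 10.34 and 10.42 in the MASM + TBI rats. The differences in the order of the plot were -0.10, -0.18 and -0.080 for Proc and -0.12, -0.18 and -0.055 for Pros1. A second Pros1 probe gave 0.13 in TBI and 0.12 in MASM + TBI rats against control, of opposite sign to the probe used, and no Pros1 difference was called. All MASM + TBI rats lay below all controls for Proc, with adjusted p = 0.336.

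Serpind1 and Serpinc1 encode the serpins that block thrombin, heparin cofactor II and antithrombin. Serpind1 gave 14.17, 14.00 and 13.93 in the controls, 14.06, 14.09 and 14.46 in the TBI rats and 14.55, 14.31, 14.46 and 14.39 in the MASM + TBI rats. All 4 MASM + TBI rats lay above all 3 controls, with a difference of 0.40 (SE 0.12, adjusted p = 0.124). Its differences were 0.17 in TBI against control and 0.23 in MASM + TBI against TBI. Serpinc1 gave 13.80, 13.99 and 14.11 in the controls, 13.71, 13.95 and 14.16 in the TBI rats and 14.27, 14.14, 14.29 and 14.06 in the MASM + TBI rats, and its groups overlapped, with differences of -0.023, 0.23 and 0.25 in the order of the plot. The inhibitor of tissue factor, Tfpi, ranged from 7.47 to 8.25 with differences of -0.19, -0.073 and 0.12. A second Tfpi probe was well above background in the TBI rats but in 0 controls, its differences were of opposite sign in each comparison, and no Tfpi difference was called.

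In fibrinolysis, plasminogen (Plg), the source of plasmin, gave 12.88, 12.69 and 13.13 in the controls, 12.76, 12.67 and 12.60 in the TBI rats and 12.78, 12.62, 12.73 and 12.75 in the MASM + TBI rats. Its differences were -0.23, -0.18 and 0.046 in TBI against control, MASM + TBI against control and MASM + TBI against TBI, and the TBI and control rats overlapped. Antiplasmin (Serpinf2) had a narrow spread, with a residual SD of 0.0466, and gave 14.31, 14.34 and 14.34 in the controls, 14.25, 14.28 and 14.30 in the TBI rats and 14.23, 14.11, 14.17 and 14.26 in the MASM + TBI rats. Its differences in the same order were -0.051, -0.14 and -0.084 (adjusted p = 0.686, 0.332 and 0.548). Every TBI rat and every MASM + TBI rat lay below the controls, by margins too small to pass the test. With a second Serpinf2 probe the groups overlapped in both comparisons with control, and MASM + TBI against TBI gave 0.021, of opposite sign. Carboxypeptidase B2 (Cpb2), which protects fibrin from plasmin, ranged from 12.47 to 13.23 with differences of -0.21, -0.017 and 0.19.

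**Figure D4:**
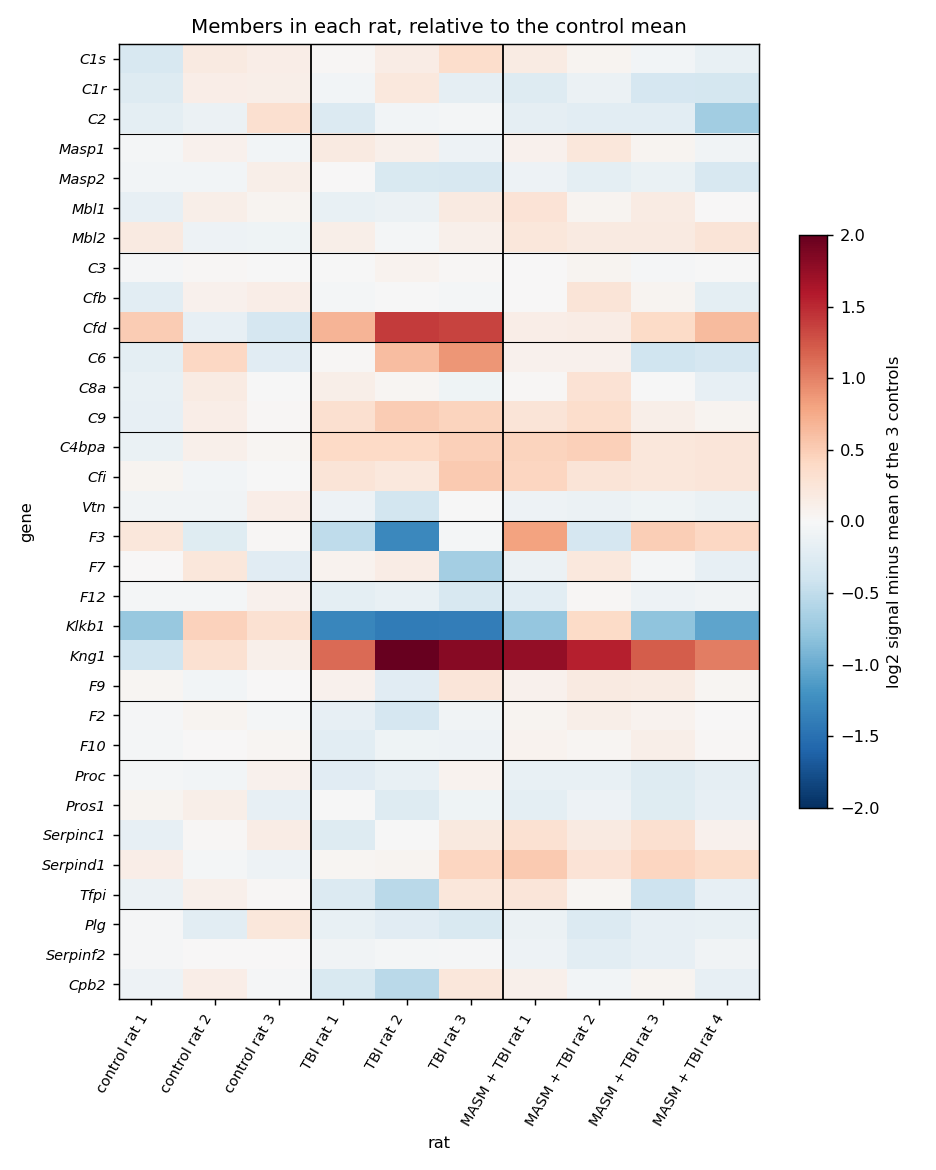
Log2 signal of the 32 members in each rat minus the mean of the 3 controls (rows: genes in the order of their roles, separated by lines; columns: rats; colour scale from -2 to 2, and values beyond it take the end colour). Kng1 is the only row that is high in all 7 irradiated rats by at least 1 log2 unit, and Klkb1 is low in the 3 TBI rats and, to a lesser degree, in control rat 1 and MASM + TBI rats 1, 3 and 4.

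Direct comparison of MASM + TBI with TBI sets irradiated rats given MASM against irradiated rats without it. As no rats had MASM alone, an effect of MASM by itself cannot be told apart from a change in the response to irradiation. The TBI arrays also had a slide of their own, so this comparison cannot be told apart from slide. Of the members, 0 of 32 were called higher, against 0.261% of all genes, and 0 lower, against 0.603%. At the unadjusted threshold 1 member was higher, F3, where the background was 1.73%, and 2 were lower, Cfd and C6, where it was 6.09%. Over the 8432 genes well above background on every array those shares were 1.17% and 4.15%. The member differences ran from -0.82 for Cfd to 0.96 for F3, with a median of 0.034 beside 0.0088 over all genes. The 95% intervals were wide in the more variable genes, at -0.087 to 1.69 for Klkb1 and -1.03 to 0.33 for Kng1, and narrow for C3 (-0.16 to 0.11) and F10 (0.041 to 0.34). The comparison with TBI and that with control share the MASM + TBI rats, and both comparisons with TBI share the TBI rats, so a low or high TBI value enters each.

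Other genes of the same systems were taken from lists of receptors, regulators and partners. Of 21 other complement genes with a probe, among 25 listed, 1 was called lower in each comparison with control, where 2.74% of all genes were in TBI and 1.97% in MASM + TBI rats. It was ficolin B (Fcnb), a lectin of neutrophils and monocytes. It fell by 1.49 in TBI and fell by 1.75 in MASM + TBI rats (adjusted p = 0.00274 and 0.00123). Of the 21, 0 were called in MASM + TBI against TBI, and 9 were past the unadjusted threshold, all lower, against a background of 6.09%. They held C1qa, C1qb and C1qc, the chains of C1q, at -0.77, -0.74 and -0.69. Those 3 are also on the Kupffer cell list, of which 7 of 10 were past the same threshold, all lower, and 0 were called. The part of Kupffer cells in these differences was not tested.

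Of 27 other coagulation genes with a probe, among 30 listed, 1 was called lower in both comparisons with control, against the same 2.74% and 1.97%. It was S100a10, a cell-surface partner of annexin A2 that binds plasminogen. It fell by 0.59 in TBI and fell by 0.68 in MASM + TBI rats (adjusted p = 0.0346 and 0.0230). The fibrinogen chains Fga, Fgb and Fgg, the clot's substrate, differed from control by 0.033, 0.26 and 0.15 in TBI (adjusted p = 0.912, 0.247 and 0.692), and none of them was called. They are named here after their values were seen.

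Among 16 acute phase genes, which overlap the coagulation list, 2 rose in TBI, Orm1 and Lbp, against 2.44% of all genes, and 0 were called in MASM + TBI against control, against 0.931%. At the unadjusted threshold 3 were higher in TBI and 4 in MASM + TBI rats, against 7.54% and 3.5% of all genes, and the list's median differences were 0.27 and 0.21. In MASM + TBI against TBI 0 were called. Orm1, a plasma carrier protein, rose by 1.59 (adjusted p = 0.0357) and Lbp, which binds bacterial endotoxin, by 1.3 (adjusted p = 0.0179). In MASM + TBI against control they lay 1.06 and 0.70 away (adjusted p = 0.130 and 0.131). Of 12 genes for transcription factors and signalling proteins that act on hepatocyte secretory genes, 1 was called, Il6r, the receptor chain for interleukin 6, which fell by 0.78 in TBI (adjusted p = 0.00912), where 2.74% of all genes were called lower. Without adjustment 1 of the 12 was past the threshold above and 2 below control in TBI, against 7.54% and 5.59% of all genes. The mean over the acute phase list lay between 14.53 and 14.79 in the controls, 14.90 and 15.44 in the TBI rats and 14.79 and 15.37 in the MASM + TBI rats, and its part in the Kng1 result was not tested.

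Markers of other cells moved as well. Of 9 leukocyte markers, 4 were called lower in TBI and 3 in MASM + TBI against control (Cd3e, Cd3g and Cd79b), against 2.74% and 1.97% of all genes. Without adjustment 4 and 5 were past the threshold, all lower, against 5.59% and 5.68%. In TBI, Cd2 was at least 5.13-fold and Cd79b at least 4.97-fold lower, bounds set by the dimmest probes well above background, since neither was well above background in any TBI rat while both were in 3 of 3 controls. Cd3g, well above background in 2 of 3 TBI rats, differed by -3.60, and Cd3e was not well above background in either group and gets no fold. The mean over the list lay between 5.28 and 5.61 in the controls, 3.82 and 4.29 in the TBI rats and 3.77 and 4.52 in the MASM + TBI rats. The platelet marker Gp1ba, well above background in 1 of 3 controls and 3 of 3 TBI rats, rose in TBI by 1.54 (adjusted p = 0.0375), the 1 called of 4 platelet markers, against 2.44% of all genes called higher. Of 7 stellate cell markers 1 (Lrat) fell in both comparisons with control, of 4 erythroid markers 1 (Ahsp) fell in MASM + TBI against control, against the same shares of all genes called lower, and of 5 endothelial markers 0 were called in any comparison. These shifts between TBI and control accompany those of Kng1 and Cfd, and their part in those results was not tested.

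The promoter windows of 29 members were searched for 7 short motifs on both strands, over the 250 bases before the annotated start. The HNF1 half-site GTTAAT, the core of the site of a factor that drives hepatocyte genes, occurred in 8 of 29 (27.6%), beside 6.46% of the 27457 windows of all genes. The 8 were C4bpa, C5, C8a, F13b, F2, Plg, Proc and Tfpi, and none of them was called in any comparison or, for C5 and F13b, measured. In C4bpa the match ran from 76 to 71 bases before the start, and in F2 from 38 to 33 on the opposite strand. The STAT motif occurred in 4 of 29 windows (13.8%, beside 7.52%), the C/EBP motif TTGCNNAAT in 3 (10.3%, beside 2.29%) and the TATA box TATAAA in 0 (beside 13.1%). The glucocorticoid half-site AGAACA occurred in 3 (10.3%, beside 17.1%), the E-box CACGTG in 1 (3.45%, beside 5.79%) and the HNF4 motif CAAAGTCCA in 0 (beside 0.331%). None of these motifs was found in the windows of Kng1, Cfd or Klkb1.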

How the data were processed

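Liver RNA of 10 rats was labelled with Cy3 and hybridized to Agilent whole-genome rat arrays. The authors deposited linear intensity values from Feature Extraction (version 10.7 per the labels), background-subtracted and not normalized between arrays. A second deposited table repeated these intensities without change. The number of rats limits the precision.

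Control and outlier spots were left out, log2 signals were quantile normalized, as the methods state, and spots of a probe were averaged. Probes took symbols from RefSeq accessions (GRCr8), 16950 of the 40945 probes complete on all arrays, and the brightest probe stood for a gene. limma 3.58.1 in R 4.3.3 fitted a mean per group to all 10 arrays, with Benjamini-Hochberg adjustment over all probes. Replicates were separate rats. The script was tested on simulated data. Plots used matplotlib 3.10.9 and alignments Biopython 1.88.

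The members and all gene lists were chosen with earlier results of these data known. Signals by rat are given for the called members and then, by F-test p, for 24 in all. Other pathway genes are named where called. Markers of hepatocytes, Kupffer cells, endothelium, stellate cells, leukocytes, platelets, erythroid cells and fat were followed as lists. Alternatives were 75th percentile scaling, normexp correction with an offset of 50, removal of dim probes, a model of the 2 groups compared, the methods' t-test (the study names a simple t-test with a fold change, and the Welch form on log2 values with folds of linear means was chosen here), a trended and robust prior, the replicate number and the slide as blocks, the mean over a gene's probes, and each rat left out. Replicate numbers did not pair the rats.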

Additional observations from a re-analysis of the deposited data

Results flagged for a closer look

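C2 in the MASM + TBI group was the 1 of 32 members in which the gap between the lowest or highest of the 4 rats and its nearest neighbour, divided by the range of the group, passed Dixon's 95% critical value for 4 samples. Klkb1, whose MASM + TBI rat 2 also lay above the rest of its group, did not pass it. In C2 the gap between MASM + TBI rat 4 (11.54) and the nearest rat (12.02) was 0.9542 of the range of the group on the log2 scale. Chance marks about 1 in 20 groups in this way, and groups of 3 rats were not examined. No C2 difference was called.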

How the results depend on the processing

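No difference of a called member changed its direction under any alternative run, and the call of 3 differences (Kng1 in both comparisons with control, Cfd in TBI) was lost in 28 of 58 refits. Members called in TBI against control numbered 2, and 0 with a model of the 2 groups alone or with the methods' t-test (whose p values use the same log2 signals and whose folds come from linear means), and 0 to 2 with a rat left out. With slide as a random block they numbered 3, Klkb1 being added (adjusted p = 0.0299), but the slide correlation was estimated below 0 (-0.13), which narrows the error between slides, and TBI lay on its own slide. That setting called 1436 of all genes in TBI, against 696. In MASM + TBI against control 1 member was called, and 0 with the methods' t-test, with the mean over all probes of a gene (adjusted p = 0.0502 for Kng1) or with slide as a fixed block (difference 1.22, adjusted p = 0.256), and 0 to 1 with a rat left out. For Kng1 in TBI the adjusted p was 0.0732 with the 2 groups alone and 0.26 with the methods' t-test, which found 5 genes of all those measured. In TBI against control the members past the unadjusted threshold numbered 3, and 2 with that t-test, which did not pass Klkb1. The slide as a fixed block was fitted only in MASM + TBI against control. In MASM + TBI against TBI the members called stayed at 0 under every alternative run for it. Those past the unadjusted threshold in that comparison numbered 3, 1 with the methods' t-test and 1 to 4 with a rat left out. In MASM + TBI against control the members past that threshold numbered 1, and 1 to 2 with a rat left out. The median member difference moved under 75th percentile scaling to 0.13 in MASM + TBI against control and 0.12 in MASM + TBI against TBI, and with a rat left out it ranged from -0.11 to 0.017 in TBI against control. That scaling called 2012, 329 and 1303 of all genes in the 3 comparisons, where quantile normalization called 696, 389 and 116. The cause of these changes was not tested.

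With the replicate number as a block, which the numbers do not warrant (same-number correlations of -0.13 to 0.17), members called were 1 in TBI against control (Kng1, adjusted p = 0.0484, Cfd 0.125), 0 in MASM + TBI against control (Kng1, adjusted p = 0.0971) and 0 in MASM + TBI against TBI. The background correction, the removal of dim probes and the trended prior changed no member count by over 1.5 times. Signal over background limited no member, since all 32 were well above it on every array.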
